A study of Rattus norvegicus with 16 samples.

Results

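Sat1, Gadd45g, Pink1, Serinc2, Nrbp2 and Fam214a are 6 genes that stood among the highest of all named genes after neural stem and progenitor cells had been kept for 12 h without fibroblast growth factor 2 (FGF-2), the mitogen of these cultures. They were chosen by that 12 h value and by name, and make up 6 of 6241 named genes on the chip. A gene was taken from every chip feature annotated with its symbol alone. That gave 8 features in all, with 2 each for Sat1 and Fam214a, which were averaged, and 1 for each other gene. The comparison of no factor at 12 h with FGF-2 therefore chose the genes, and every value from it is given as a description with no test.

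Withdrawal of a mitogen moves proliferating precursors out of the cell cycle, and many genes that slow division or recycle cell components respond. Sat1 encodes spermidine/spermine N1-acetyltransferase, which starts polyamine breakdown, and dividing cells depend on polyamines. Gadd45g encodes a small stress and growth arrest protein that binds the mitotic kinase Cdk1 and an upstream kinase of the p38 pathway. Pink1 encodes a mitochondrial kinase that marks damaged mitochondria for removal. Serinc2 belongs to the serine incorporators, a family of multipass membrane proteins. Nrbp2 encodes a pseudokinase, a protein with a kinase fold that lacks residues needed for catalysis. Fam214a, also called Atosa, encodes a protein of the atos family.

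The cells had been taken from Sprague-Dawley rat neocortex of embryonic day 14.5 and expanded as a monolayer in 10 ng/ml FGF-2. For 12 h or 6 d they then had either no growth factor or 10 ng/ml platelet-derived growth factor AA (PDGF-AA), added daily. PDGF-AA signals through the receptor that Pdgfra encodes. Each of 16 arrays compared RNA of 1 of these 4 groups with RNA of FGF-2-treated cells. A group comprised 4 arrays, of which 2 had Cy5 and 2 had Cy3 on the sample. Rat RNA was read on a mouse cDNA chip, so differences between the species can weaken a spot.

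Values are log2 ratios over the FGF-2 reference, so 0 is the reference level and 1 is a doubling. The sources used here give neither the log base, taken as 2, nor the direction, likely sample over reference, and every fold and sign rests on them. The basis for the direction is a list of cell cycle and DNA replication genes, of which 34 of 37 measured members were called lower after 12 h without factor and 0 higher. Values are given for replicates 1 to 4 in that order with the fitted dye effect removed, and the numbers only name arrays. Dye effects were large for several of the 6 genes: Cy5 arrays read lower than Cy3 arrays by an effect of -1.20 for Gadd45g, -0.89 for Nrbp2, -0.77 for Pink1 and -0.49 for Serinc2. For Sat1 (-0.06) and Fam214a (0.05) the dye effect did not pass the threshold. It passed for 39.1% of all genes and unnamed probes tested. At least 2 RNA preparations stood behind each group, with no record of which arrays share one, so p-values reflect only how hybridisations varied, perhaps for technical reasons. In RNA from whole cultures, more RNA per cell and more cells of a type that carries it cannot be told apart.

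In both 6 d groups, the mean of the 6 genes on replicate 4 lay towards the other treatment. That mean over the 6 genes was 1.73, 1.18, 1.25 and 0.48 on the no-factor arrays of 6 d, and -0.32, 0.28, 0.02 and 1.27 on the PDGF-AA arrays of 6 d. Over all 12559 genes and unnamed probes tested, the 4 PDGF-AA arrays of 6 d had mean correlations of 0.16, 0.27, 0.10 and 0.27 with their own group and 0.20, 0.28, 0.28 and 0.47 with no factor at 6 d. The gap was widest for replicate 4, but none of these arrays was closer to its own group. The no-factor arrays of 6 d were all closer to their own group, at 0.52, 0.48, 0.55 and 0.43, than to PDGF-AA, at 0.29, 0.25, 0.36 and 0.33. The array titles carry a number that the sources used here do not explain. It was the same on 12 of the 16 arrays, all 12 h arrays among them. The other 4 were replicates 1 to 3 of PDGF-AA at 6 d and replicate 1 of no factor at 6 d. Comparisons with 6 d arrays are therefore also given for the 12 arrays of the commonest title number or without replicate 4.

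**Figure D1:**
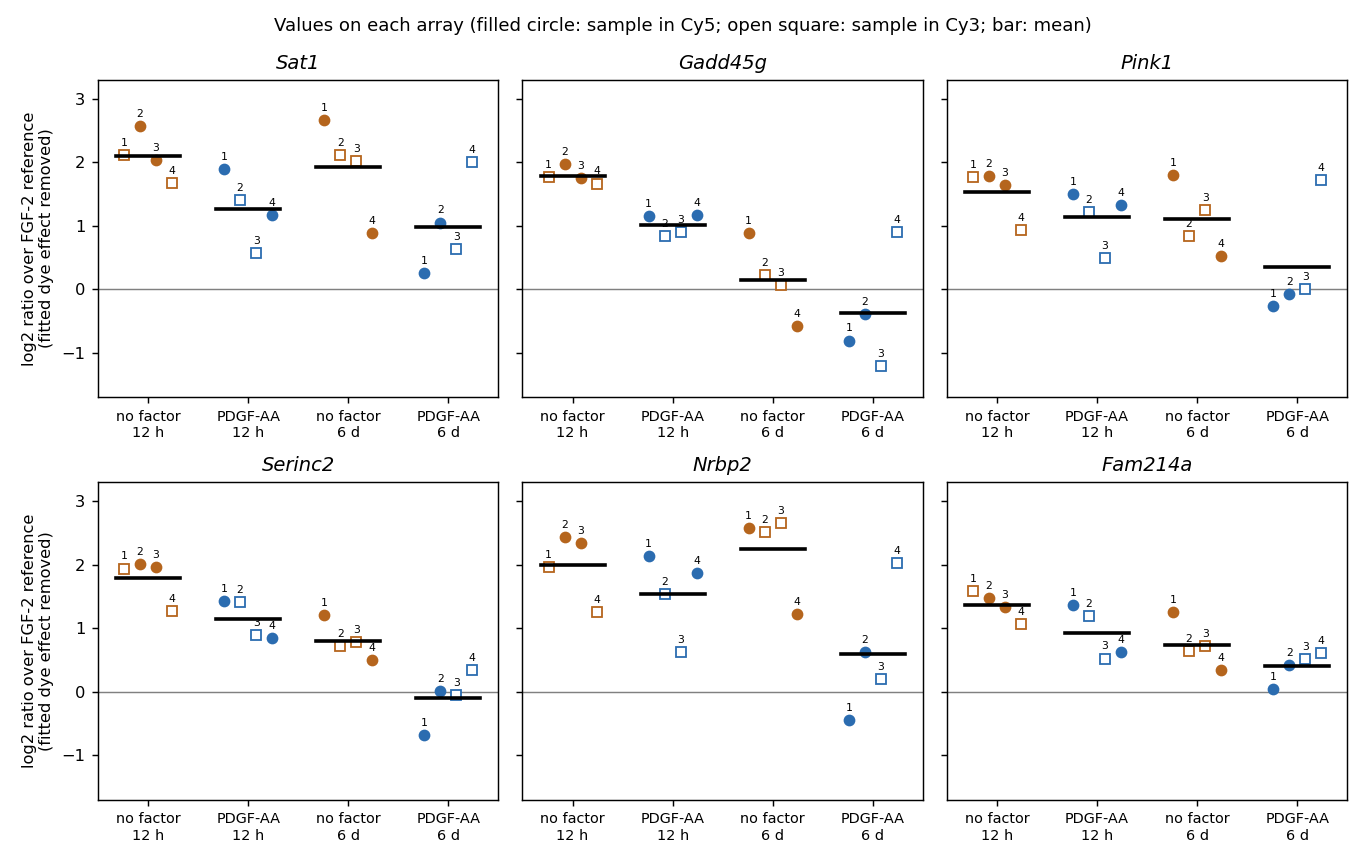
Each panel plots 1 gene and each point 1 array, as a log2 ratio over the FGF-2 reference with the fitted dye effect removed, and digits give the replicate, filled circles Cy5 and open squares Cy3 samples, and bars group means (n = 4). All 4 arrays of no factor at 12 h lie above 0 for every gene, and replicate 4 of PDGF-AA at 6 d lies apart from the other 3 arrays of its group for Sat1, Gadd45g, Pink1 and Nrbp2.

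After 12 h without growth factor, the 6 genes stood between 2.58-fold and 4.27-fold over the FGF-2 reference. Sat1 was the highest of the 6241 named genes, followed by Nrbp2, Serinc2, Gadd45g and Pink1 in places 2 to 5, and Fam214a held place 8. The 2 other genes in that range were the cyclin-dependent kinase inhibitor Cdkn1c at 1.50 and the matrix gene Tnc at 1.38. Fam214a, the lowest of the 6, stood at 1.37, and the next genes below it were Mfge8 at 1.30 and the glycolytic gene Aldoc at 1.29. The Fam214a features averaged there read 1.575 and 1.165. The order also changed with the processing: under quantile normalisation Nrbp2 (2.69) and Gadd45g (2.44) stood above Sat1 (2.39). The median of all 12559 units was -0.00101, and 5.21% of them were called higher and 6.48% lower in this comparison.

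Sat1 read 2.11, 2.56, 2.04 and 1.67 on the 4 no-factor arrays, with a mean of 2.09 ± 0.27 (SE). Nrbp2 read 1.96, 2.43, 2.34 and 1.25, with a mean of 2.00 ± 0.33. Gadd45g read 1.77, 1.97, 1.75 and 1.67, with a mean of 1.79 ± 0.25. Of these, Gadd45g was the most even between arrays once the dye effect was removed, and replicate 4 was the lowest array for all 3. Serinc2 read 1.94, 2.01, 1.97 and 1.27, with a mean of 1.80 ± 0.17. Pink1 read 1.76, 1.78, 1.64 and 0.93, with a mean of 1.53 ± 0.27. Fam214a read 1.59, 1.48, 1.34 and 1.07, with a mean of 1.37 ± 0.16. Replicate 4 was again the lowest array for each, and every array of every gene lay above 0, as it did for 12.9% of all units. Without replicate 4 the 6 values ranged from 1.48 for Fam214a to 2.27 for Nrbp2.

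The stretches just before the transcription starts of these genes are shown because an E-box letter pattern recurred in some of them. The genes were chosen by the same 12 h value, so their common rise is not a finding. RefSeq promoters of the rat assembly GRCr8 were matched by symbol for 5 of the 6 genes, Fam214a under its synonym Atosa. The 250 bases before each start are printed 5′ to 3′ in the direction of transcription, with each CACGTG, a palindromic E-box, in capitals.
Gadd45g, chr17:13530352-13530601, minus strand: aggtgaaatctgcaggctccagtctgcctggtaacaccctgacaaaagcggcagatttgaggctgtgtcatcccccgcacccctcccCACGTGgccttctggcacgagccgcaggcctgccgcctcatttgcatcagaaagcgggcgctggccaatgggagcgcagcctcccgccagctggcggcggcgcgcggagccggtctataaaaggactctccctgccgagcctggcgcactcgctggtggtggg
Pink1, chr5:155825951-155826200, minus strand: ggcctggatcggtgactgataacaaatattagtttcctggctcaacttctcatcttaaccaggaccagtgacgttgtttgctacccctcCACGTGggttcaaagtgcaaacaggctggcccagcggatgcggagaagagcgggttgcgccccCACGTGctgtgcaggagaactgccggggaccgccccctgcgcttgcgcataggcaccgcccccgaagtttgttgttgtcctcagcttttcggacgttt
Fam214a, chr8:84575318-84575567, plus strand: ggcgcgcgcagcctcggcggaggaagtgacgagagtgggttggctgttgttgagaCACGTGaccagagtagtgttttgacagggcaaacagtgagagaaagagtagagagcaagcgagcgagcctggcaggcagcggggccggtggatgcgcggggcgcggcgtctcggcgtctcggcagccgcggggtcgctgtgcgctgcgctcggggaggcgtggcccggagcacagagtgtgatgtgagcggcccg
Sat1, chrX:44007839-44008088, plus strand: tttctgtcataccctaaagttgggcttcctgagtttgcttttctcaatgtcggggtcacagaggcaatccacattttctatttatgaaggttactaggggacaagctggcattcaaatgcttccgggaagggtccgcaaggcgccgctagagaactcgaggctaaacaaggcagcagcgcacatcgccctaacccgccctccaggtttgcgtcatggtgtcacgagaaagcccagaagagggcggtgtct
Serinc2, chr5:147898798-147899047, minus strand: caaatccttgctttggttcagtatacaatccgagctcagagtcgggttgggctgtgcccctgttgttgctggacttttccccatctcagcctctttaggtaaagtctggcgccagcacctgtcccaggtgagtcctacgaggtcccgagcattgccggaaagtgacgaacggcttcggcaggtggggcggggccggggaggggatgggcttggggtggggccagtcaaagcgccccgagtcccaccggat

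CACGTG was found in 3 of the 5 promoters. It began 163 bases before the start in Gadd45g, 195 bases before it in Fam214a, and 161 and 98 bases before it in Pink1. Of 33469 RefSeq promoter stretches of the same length, 5.59% held this pattern and 0.43% held it more than once. Sat1 and Serinc2 held none. CACGTG was singled out from the patterns searched because it recurred in these promoters. Its share among them is therefore not read as an enrichment. The other patterns searched on both strands were the FOXO element GTAAACA, found in 0 of 5 against 3.21% of all promoters, and the CRE TGACGTCA, in 0 of 5 against 1.59%. The ATF4 element TGATGCAA was in Gadd45g alone (0.693% of all promoters), and so was CCAAT (34% of all promoters). The GC box GGGCGG was in Sat1, Pink1 and Serinc2 (30.5% of all promoters), and the CHR element TTTGAA in Sat1 and Pink1 (16.2% of all promoters). No pattern searched is contained in another. A match describes the letters in this window and is not evidence of binding.

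With PDGF-AA present for the same 12 h, all 6 genes were called higher than the FGF-2 reference. The PDGF-AA arrays were not those the genes were ranked on, but they share the FGF-2 reference with them, so the comparison is not independent of the choice. Across all 12559 units, 83 (0.661%) were called higher in this comparison. Serinc2 read 1.43, 1.41, 0.89 and 0.84 and rose 2.21-fold (1.14 ± 0.17, limma adjusted p = 0.00166). Fam214a read 1.36, 1.19, 0.52 and 0.62 and rose 1.90-fold (0.92 ± 0.16, limma adjusted p = 0.00352). In both genes replicates 1 and 2 were higher than 3 and 4.

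Nrbp2 read 2.14, 1.54, 0.63 and 1.87 and rose by 1.55 ± 0.33 (limma adjusted p = 0.0156). Sat1 read 1.90, 1.40, 0.57 and 1.17 and rose by 1.26 ± 0.27 (limma adjusted p = 0.0174). Pink1 read 1.49, 1.22, 0.49 and 1.32 and rose by 1.13 ± 0.27 (limma adjusted p = 0.0298). Replicate 3 was the lowest array for all 3 of these genes. Gadd45g was even again, at 1.16, 0.84, 0.90 and 1.17, and rose by 1.02 ± 0.25 (limma adjusted p = 0.0327). The 6 calls fell to 1 without replicate 1 of this group, to 2 without replicate 2 and to 2 without replicate 4, and Serinc2 was called each time. Without replicate 3 there were 5 calls, and without the dye term 3. Calls over all units, 378 in either direction with every array, fell as well, to 76, 113, 288 and 247 without replicates 1 to 4 and to 156 without the dye term.

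Each of the 6 genes stood lower with PDGF-AA than without factor at 12 h, in values that share the arrays used to choose them and so carry no test. The difference was -0.83 ± 0.39 for Sat1, -0.77 ± 0.35 for Gadd45g and -0.66 ± 0.23 for Serinc2. It was smaller for Nrbp2 (-0.45 ± 0.47), Fam214a (-0.45 ± 0.22) and Pink1 (-0.40 ± 0.38). The 95% confidence intervals reached 0 or beyond for Nrbp2 (-1.44 to 0.54), Fam214a (-0.91 to 0.02) and Pink1 (-1.21 to 0.41). Sizes and order moved with the processing. Under quantile normalisation Sat1 stood at -0.31, Serinc2 at -0.45 and Gadd45g at -1.09. With arrays scaled to a common spread Gadd45g stood at -0.61. Gadd45g alone had no overlap between the arrays of both groups, with its lowest no-factor array at 1.67 and its highest PDGF-AA array at 1.17. Among all units, 1.81% had no overlap in this direction. Choosing genes by high no-factor values favours this direction, which is therefore not read as a result about PDGF-AA.

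**Figure D2:**
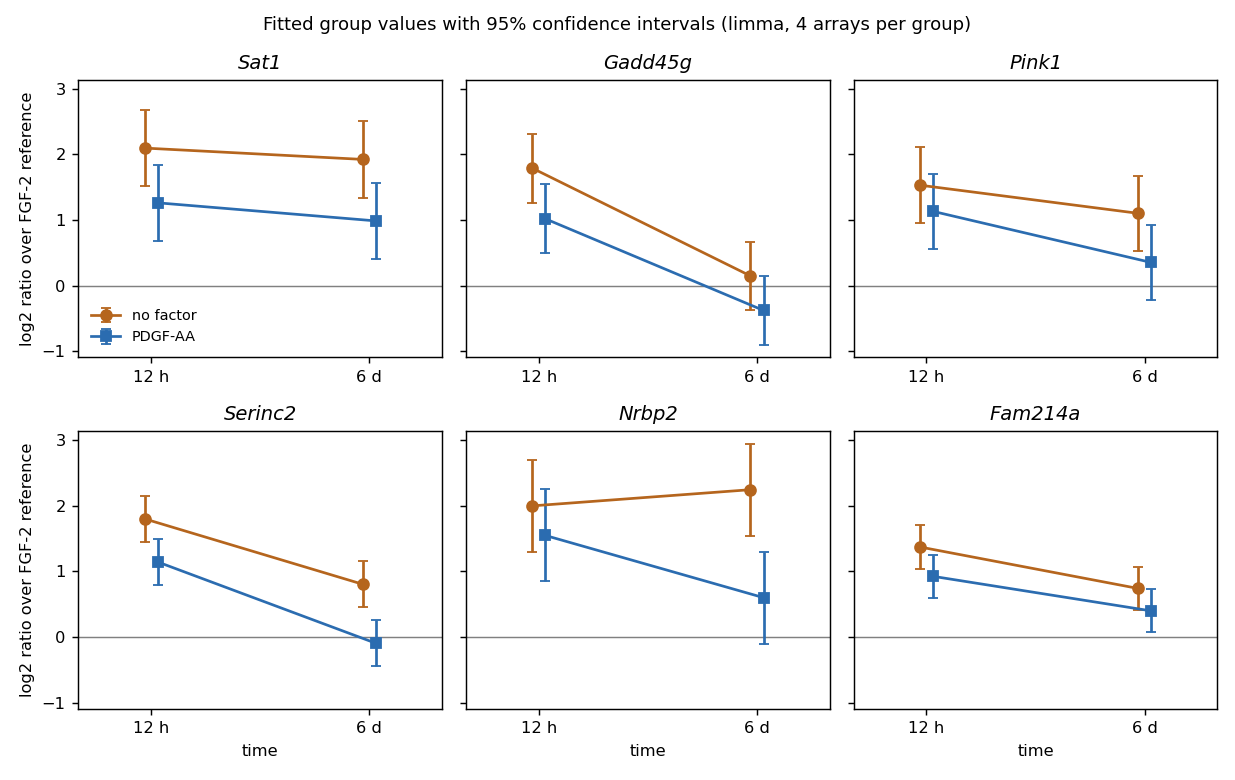
Each panel plots 1 gene at 12 h and 6 d as the fitted log2 ratio over the FGF-2 reference with its 95% confidence interval (limma, 4 arrays per group), brown circles without factor and blue squares with PDGF-AA. Without factor, Sat1 (2.09 and 1.92) and Nrbp2 (2.00 and 2.24) stayed high while Gadd45g went from 1.79 to 0.15.

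At 6 d without factor, 5 of the 6 genes were called higher than the FGF-2 reference, where 6.99% of all units were, and Gadd45g was not. These arrays too share the reference with those the genes were ranked on. Nrbp2 read 2.58, 2.51, 2.65 and 1.22 and rose 4.73-fold (2.24 ± 0.33, limma adjusted p = 0.00024). Sat1 read 2.66, 2.12, 2.02 and 0.89 and rose 3.79-fold (1.92 ± 0.27, limma adjusted p = 0.000184). In both genes the first 3 arrays stood well above replicate 4. Among arrays of the commonest title number both stayed called, Nrbp2 at 2.18 and Sat1 at 1.69, and without replicate 4 of this group at 2.61 and 2.30.

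Pink1 read 1.79, 0.84, 1.25 and 0.52 and rose by 1.10 ± 0.27 (limma adjusted p = 0.0106). Its call was lost without replicate 1 or replicate 3 of this group, where the highest limma adjusted p was 0.11, and without the dye term (limma adjusted p = 0.0511). Serinc2 read 1.21, 0.72, 0.78 and 0.50 and rose by 0.80 ± 0.17 (limma adjusted p = 0.003). Fam214a read 1.25, 0.64, 0.72 and 0.34 and rose by 0.74 ± 0.16 (limma adjusted p = 0.00353). Replicate 1 was the highest and replicate 4 the lowest array in all 3 genes. Serinc2 lost its call under quantile normalisation, at 0.72 (limma adjusted p = 0.0703), and Fam214a among arrays of the commonest title number, at 0.57 (limma adjusted p = 0.0516). There Pink1 (0.91) and Serinc2 (0.68) were still called.

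Gadd45g read 0.89, 0.22, 0.07 and -0.58 at 6 d, on both sides of the reference. Its mean of 0.15 ± 0.25 was not called (limma adjusted p = 0.852), with a 95% confidence interval from -0.37 to 0.67. Without replicate 1 of this group the value was -0.12, and without replicate 4 it was 0.41. Without both replicate 4 arrays of 6 d, a pair chosen after its values had been seen, Gadd45g was called higher at 0.46 (limma adjusted p = 0.0176).

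The time courses without factor differed in size between the genes, and they are descriptions because the 12 h arrays chose the genes. Gadd45g stood lower at 6 d than at 12 h by -1.64 ± 0.35, Serinc2 by -0.996 ± 0.23 and Fam214a by -0.63 ± 0.22. For Gadd45g and Serinc2 every 6 d array lay under every 12 h array, a pattern that 4.78% of all units showed. Pink1 differed by -0.43 ± 0.38 and Sat1 by -0.17 ± 0.39. Nrbp2 had a higher mean at 6 d, by 0.25 ± 0.47. These last differences turned with the processing: under quantile normalisation Nrbp2 stood at -0.95 and Sat1 at -0.82, without replicate 4 of no factor at 12 h Nrbp2 stood at -0.03, and without replicate 4 of no factor at 6 d Sat1 stood at 0.20. The intervals for Pink1 (-1.24 to 0.38), Sat1 (-0.99 to 0.65) and Nrbp2 (-0.74 to 1.24) all include 0, so a fall or a further rise of that size was not resolved. Choosing genes by a high 12 h value favours a lower value later, so the falls are not read as a result.

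With PDGF-AA for 6 d, 0 of the 6 genes passed the threshold in limma, against 1.9% of all units called higher, and 2 of the 6 had an unadjusted p under 0.05. Sat1 read 0.25, 1.05, 0.64 and 2.00, with a mean of 0.99 ± 0.27 (limma adjusted p = 0.0645). Nrbp2 read -0.45, 0.62, 0.19 and 2.03, with a mean of 0.60 ± 0.33 (limma adjusted p = 0.412). Pink1 read -0.26, -0.07, 0.01 and 1.73, with a mean of 0.35 ± 0.27 (limma adjusted p = 0.594). Replicate 4 was the highest array in each.

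Fam214a read 0.04, 0.43, 0.51 and 0.61, with a mean of 0.40 ± 0.16 (limma adjusted p = 0.212). Serinc2 read -0.68, 0.01, -0.05 and 0.34, with a mean of -0.10 ± 0.17 (limma adjusted p = 0.846). Gadd45g read -0.80, -0.39, -1.21 and 0.90, with a mean of -0.38 ± 0.25 (limma adjusted p = 0.508). Replicate 4 was the highest array here as well, and the only Gadd45g array above 0. Without replicate 4, Pink1 stood at -0.15 and Nrbp2 at 0.08, and Gadd45g was called lower at -0.84 (limma adjusted p = 0.0343). Sat1 was called higher without replicate 1, at 1.25 (limma adjusted p = 0.0303), and also without replicate 4 of no factor at 6 d (limma adjusted p = 0.0296). With the title number as a term, and among arrays of its commonest value only, replicate 4 alone sets the value of this group. Sat1 then stood at 2.06 and 2.03 and Pink1 at 1.81 and 1.83, in that order.

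Between 12 h and 6 d of PDGF-AA, Serinc2 fell by 1.24 on the log2 scale (SE 0.23, limma adjusted p = 0.0152), the only call among the 6, where 0.438% of all units were called lower. Its 6 d arrays, at most 0.34, all lay under its 12 h arrays, at least 0.84, as 2.56% of all units did. Gadd45g differed by -1.39 ± 0.35 (limma adjusted p = 0.075), Nrbp2 by -0.95 ± 0.47 (limma adjusted p = 0.47) and Pink1 by -0.78 ± 0.38 (limma adjusted p = 0.468). Fam214a differed by -0.53 ± 0.22 (limma adjusted p = 0.362) and Sat1 by -0.28 ± 0.39 (limma adjusted p = 0.843). The Serinc2 call was lost when replicate 1 or 2 of the 12 h PDGF-AA arrays was left out, without the dye term, when only these 2 groups were fitted, and in a fit with a title number term.

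At 6 d the PDGF-AA cultures were below the no-factor cultures in all 6 group means, but 0 of the 6 differences passed the threshold in limma, and 3 had an unadjusted p under 0.05. Very little passed anywhere in this comparison, with 1 of 12559 units (0.00796%) called. Nrbp2 differed by -1.64 ± 0.47 (95% confidence interval -2.63 to -0.65, limma adjusted p = 0.417). Serinc2 differed by -0.90 ± 0.23 (-1.39 to -0.40, limma adjusted p = 0.397) and Sat1 by -0.94 ± 0.39 (-1.76 to -0.11, limma adjusted p = 0.521). Serinc2 was the only gene whose groups did not overlap, with no-factor arrays from 0.50 up and PDGF-AA arrays up to 0.34, as 2.46% of all units showed. Without replicate 4 of PDGF-AA alone, Nrbp2 was called, at -2.16 (limma adjusted p = 0.0314). Pink1 (-0.75 ± 0.38), Gadd45g (-0.52 ± 0.35) and Fam214a (-0.34 ± 0.22) had intervals that included 0.

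These 6 d differences moved most with the choice of arrays. Among the 12 arrays of the commonest title number, which leave 1 PDGF-AA and 3 no-factor arrays at 6 d, Sat1 stood at 0.34, Gadd45g at 0.99, Pink1 at 0.93, Nrbp2 at 0.0027, Fam214a at 0.0447 and Serinc2 at -0.30. Without both replicate 4 arrays of 6 d, the same differences were -1.75, -1.33, -1.53, -2.62, -0.59 and -1.19, and 5 of the 6 were called, Fam214a (limma adjusted p = 0.304) being the exception. That pair was left out after its values had been seen and because they lay towards the other group, so those calls support nothing. The PDGF-AA and no-factor arrays of 6 d left then have no title number in common, so title number and treatment cannot be told apart.

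**Figure D3:**
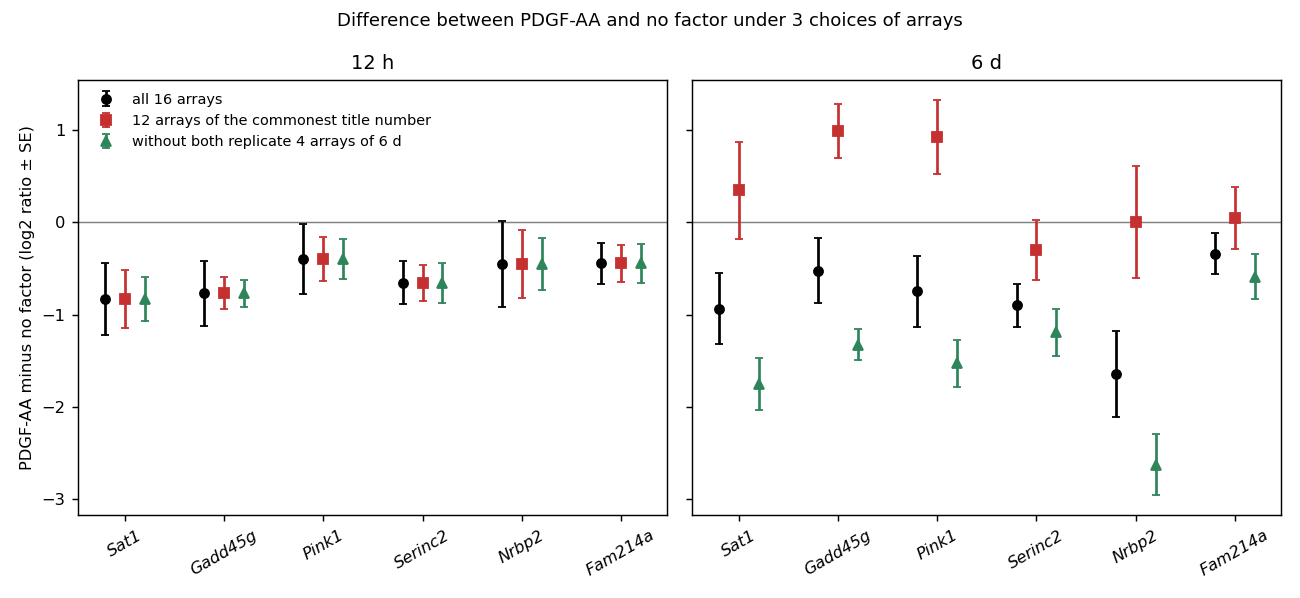
The difference between PDGF-AA and no factor, as a log2 ratio ± SE, is plotted for each gene at 12 h (left) and 6 d (right) with all 16 arrays (black circles), the 12 arrays of the commonest title number (red squares) and without both replicate 4 arrays of 6 d (green triangles). All 3 choices keep every 12 h array, so the 12 h differences could not change with them. At 6 d Gadd45g ranges from -1.33 to 0.99.

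Genes related to the 6 by pathway were read from lists that left the 6 genes out. Against the reference, the share of all units called higher and lower was 5.21% and 6.48% for no factor at 12 h, 0.661% and 2.35% for PDGF-AA at 12 h, 6.99% and 6.73% for no factor at 6 d, and 1.9% and 1.32% for PDGF-AA at 6 d. All groups share the FGF-2 reference, so values of the 4 groups are set side by side without a test of their likeness. Among 10 other measured genes of polyamine metabolism, 1 was higher and 3 lower after 12 h without factor, and 2 were higher and 3 lower after 6 d. Smox, a spermine oxidase on the breakdown side like Sat1, rose by 0.86 ± 0.18 at 12 h (limma adjusted p = 0.0053) and by 0.98 ± 0.18 at 6 d (limma adjusted p = 0.00153). Odc1, the first enzyme of polyamine synthesis, fell by 0.79 at 12 h and by 0.91 at 6 d. The spermidine synthase gene Srm fell by 0.61 at 12 h, and Mtap, a salvage enzyme for a by-product of polyamine synthesis, fell by 0.66 and 0.77. With PDGF-AA, 0 of the 10 passed in limma at 12 h (4 had an unadjusted p under 0.05), and at 6 d only Odc1 did, lower by -0.55 ± 0.12 (limma adjusted p = 0.0186). The list medians stayed near 0, at -0.10 and -0.02 without factor.

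Of the serine incorporator and serine synthesis genes, 12 besides Serinc2 were measured. Without factor, 2 were higher and 2 lower at 12 h, and 4 higher and 2 lower at 6 d. The family members Serinc1 and Serinc5 rose at 12 h, by 0.41 ± 0.12 and 0.58 ± 0.14, and at 6 d Serinc1 (0.65 ± 0.12), Serinc3 (0.85 ± 0.13) and Serinc5 (0.92 ± 0.14) all rose. Their means were thus higher at 6 d than at 12 h, where that of Serinc2 was lower. Serinc2 was chosen by its high 12 h value, which favours a lower later value, so the contrast is not read as a result. Shmt1 and Shmt2, which interconvert serine and glycine, fell by 0.92 and 0.79 at 12 h. With PDGF-AA, 0 rose and Shmt2 fell at 12 h, by 0.43, and 0 passed in limma at 6 d, where 4 had an unadjusted p under 0.05.

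**Figure D4:**
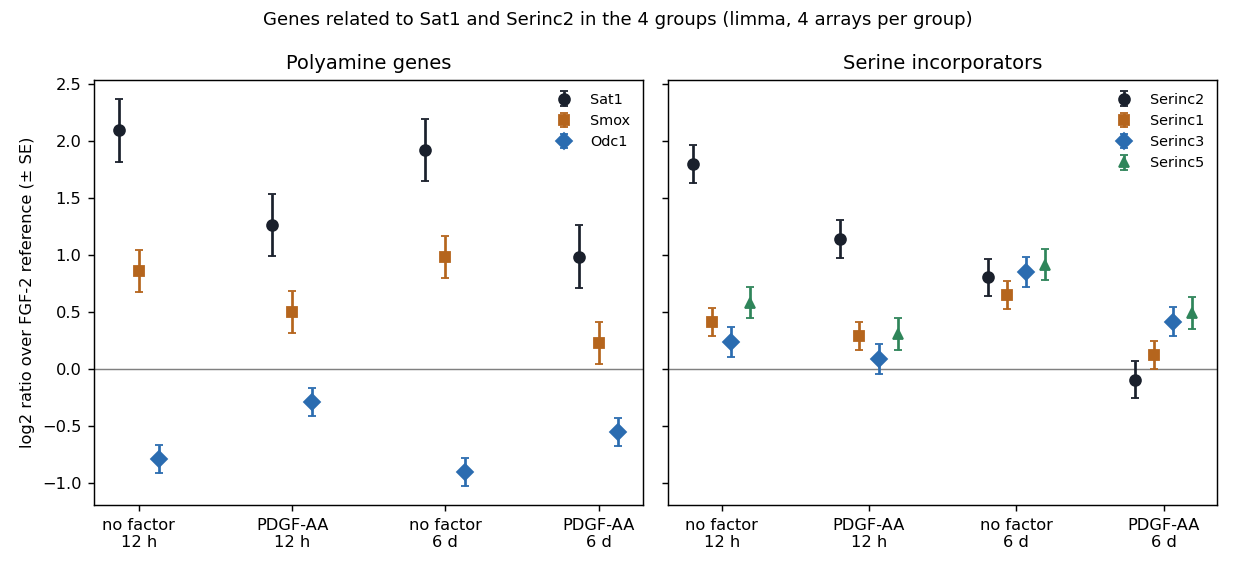
Log2 ratios over the FGF-2 reference ± SE (limma, 4 arrays per group) are plotted for Sat1, Smox and Odc1 (left) and for 4 serine incorporators (right) in the 4 groups. Sat1 and Smox lie above 0 and Odc1 below it in every group, and Serinc2 is the highest serine incorporator at 12 h (1.80 without factor) and the lowest with PDGF-AA at 6 d (-0.10). Sat1 and Serinc2 were chosen by their high 12 h values without factor.

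Mitochondrial quality control genes besides Pink1 were mostly not called. Of 25 measured, 3 were higher and 1 lower at 12 h without factor, and 4 higher and 2 lower at 6 d. Sqstm1, an autophagy receptor, rose by 0.88 ± 0.14 at 12 h (limma adjusted p = 0.000598) and by 1.17 ± 0.14 at 6 d (limma adjusted p = 5.54e-05). Bnip3l, a mitophagy receptor, rose by 0.56 at 12 h, and Bnip3, its relative, by 0.63 at 6 d. Usp30, a mitochondrial deubiquitinase that opposes Pink1 signalling, rose by 0.38 and 0.47, and Vdac2, an outer membrane channel, fell by 0.41 and 0.55. With PDGF-AA, Sqstm1 rose by 0.56 at 12 h as the only call of the list, and at 6 d Sqstm1 (0.61) and Bnip3 (0.58) rose while Vdac2 fell by 0.40. The list medians lay between -0.01 and 0.03 over the 4 groups.

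The list of growth arrest and cell cycle exit genes, 23 measured without Gadd45g, moved in both directions. Without factor, 5 were higher and 4 lower at 12 h, and 4 higher and 5 lower at 6 d. Cdkn1c rose by 1.50 ± 0.41 at 12 h (limma adjusted p = 0.0228) and by 2.87 ± 0.41 at 6 d (limma adjusted p = 0.000175). Mxd4, an antagonist of Myc, rose by 0.90 at 12 h and Btg2, an antiproliferative gene, by 0.86. Cdkn2c, a cyclin-dependent kinase inhibitor, fell by 1.56 at 12 h. At 6 d Ndrg1 rose by 0.76, while the growth arrest gene Gas1 fell by 0.98 and the transcription factor gene Klf6 by 0.85. With PDGF-AA, 0 rose in limma (4 were higher at an unadjusted p under 0.05) and 3 fell at 12 h, Cdkn2c by 1.20, the pocket protein gene Rbl1 by 0.74 and Ccng1 by 0.47. At 6 d with PDGF-AA, Cdkn1c rose by 2.11, and Gas1 and Klf6 fell by 1.07 and 0.82.

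Partners of the Gadd45 proteins and p38 kinases, 9 measured, held 0 higher calls by limma in each of the 4 groups, with at most 2 higher at an unadjusted p under 0.05. Cdk1, the kinase that Gadd45g binds, fell by 1.89 ± 0.17 at 12 h without factor, by 1.16 at 12 h with PDGF-AA and by 0.92 at 6 d without factor. It is also a gene of the proliferating state, like the list that gave the direction of the ratios. The list of FoxO targets and brakes on insulin signalling, 13 measured, had 3 higher and 0 lower at 12 h without factor, among them the autophagy genes Ulk1 (0.72 ± 0.15) and Map1lc3b (0.51 ± 0.09). At 6 d without factor 2 were higher, Cat (0.54 ± 0.08), which encodes catalase, and Map1lc3b (0.50 ± 0.09), and Prdx3 fell by 0.75. With PDGF-AA, 0 passed in limma at 12 h (4 had an unadjusted p under 0.05) and Cat alone at 6 d, higher by 0.51.

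Nrbp1, the closest relative of Nrbp2, stood near the reference at 0.02, -0.02 and -0.04 in no factor at 12 h, PDGF-AA at 12 h and no factor at 6 d. With PDGF-AA at 6 d it was lower, at -0.31 ± 0.09 (limma adjusted p = 0.0871). It was not called in any group. Among the 11 measured pseudokinase genes and Nrbp partners, 0 passed in limma at 12 h in either treatment, with 1 unadjusted p under 0.05 without factor and 0 with PDGF-AA. At 6 d without factor 2 were higher, Tsc22d4 by 1.05 ± 0.16 and Stk39 by 0.72 ± 0.12, and Eloc fell by 0.39. Tsc22d4 was also higher at 6 d with PDGF-AA, by 0.99 ± 0.16. Its protein is a known partner of Nrbp1.

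Several of these list calls were lost when 1 array was left out. Calls over all units fell as well, for no factor at 12 h from 1468 to 907, 740 and 797 without its replicates 1 to 3. At 12 h without factor, the Cdkn1c call was lost without replicate 1, 2 or 3, those of Btg2 and Serinc5 each without either of 2 arrays, that of Serinc1 without any 1 of the 4, those of Smox, Mxd4, Ulk1 and Bnip3l without replicate 2, that of Mtap without replicate 1 or 2, that of Usp30 without replicate 1 or 3 and that of Vdac2 without replicate 3. The Sqstm1 call at 12 h with PDGF-AA was lost without any 1 of 11 arrays, of its own and other groups. The Shmt2 call there was lost without any 1 of that group's 4, and the Ccng1 call without replicate 1, 2 or 4. At 6 d without factor, the Eloc call was lost without replicate 1 or 3 and that of Id3, a stem cell marker, without replicate 2. At 6 d with PDGF-AA, Odc1, Sqstm1 and Vdac2 lost their calls without replicate 2 or 4, Bnip3 without replicate 2 and Cdkn1c without replicate 4. A fit with a title number term leaves replicate 4 alone to set that group. In it Odc1, Gas1, Klf6, Cat, Bnip3 and Vdac2 lost their calls for PDGF-AA at 6 d.

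Markers of cell types moved between the groups as well. Of 8 measured astrocyte markers, 3 were higher at 12 h without factor and 0 with PDGF-AA by limma (3 at an unadjusted p under 0.05), and at 6 d 7 were higher and 1 lower without factor and 3 higher and 1 lower with PDGF-AA. The mean of the 8 ranged from 0.85 to 1.62 on the no-factor arrays of 6 d and from 0.07 to 0.97 on the PDGF-AA arrays. Of 5 mesenchymal markers, 4 were higher at 6 d without factor and 3 with PDGF-AA, and all 3 oligodendrocyte lineage markers were higher at 6 d without factor and 2 with PDGF-AA. At 12 h without factor, 1 mesenchymal and 1 oligodendrocyte lineage marker were higher. With PDGF-AA at 12 h, 0 of either list passed in limma (2 mesenchymal and 1 oligodendrocyte lineage at an unadjusted p under 0.05). The 7 measured stem and progenitor markers moved both ways. At 12 h, 1 was higher and 3 lower without factor, and 1 higher and 1 lower with PDGF-AA. At 6 d, 2 were higher and 2 lower without factor, and 1 higher and 2 lower with PDGF-AA. Nes fell by 0.89 and Id1 by 0.82 at 6 d without factor, while Tnc rose by 1.75 and Id3 by 0.88. Of 6 neuron markers, 2 were higher and 1 lower at 12 h and 2 higher at 6 d without factor. With PDGF-AA, 1 neuron marker was higher at 12 h and 0 passed in limma at 6 d, where 2 had an unadjusted p under 0.05. None of 5 microglial or 3 endothelial markers was called in any group by limma, and 1 microglial marker had an unadjusted p under 0.05, at 6 d without factor. Several marker calls were also lost when 1 array of their group was left out. At 6 d with PDGF-AA, Clu and Sparc lost theirs without replicate 2, 3 or 4. Sparcl1 lost its call there without 2 or 3, and Cd9 without 2 or 4. Without factor at 6 d, Aldoc lost its call without replicate 1 or 3 and Pdgfra without 1 or 2. In the fit with a title number term, Clu, Entpd2, Sparcl1, Col3a1, Cd9, Nes and Id1 lost their calls at 6 d with PDGF-AA. Log ratios give no level, so the presence of a cell type cannot be read from them, and the part of these shifts in the values of the 6 genes was not tested.

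Across the 16 arrays, the genes most like each of the 6 were sought among 1687 named genes called in at least 1 group, by Pearson's r after removal of the dye effect. Gadd45g was nearest to Satb1 (r = 0.977), Btg2 (0.957) and Bckdha (0.950). Btg2 stood at 0.86, 0.52, 0.03 and -0.61 and Bckdha at 1.06, 0.71, 0.30 and -0.12, in the order no factor 12 h, PDGF-AA 12 h, no factor 6 d and PDGF-AA 6 d. Such genes were picked for their likeness over these same arrays, so a shared course follows from the choice. Nrbp2 was nearest to Ptprs (0.969), the cathepsin gene Ctsd (0.946) and Pmepa1 (0.937), which stood higher at 6 d than at 12 h without factor. Ctsd stood at 0.73, 0.47, 0.91 and 0.16 in that order.

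Sat1 was nearest to Atp9a (0.949), Wbp1 (0.944) and Ist1 (0.930), and Pink1 to Rab11b (0.949), Pisd-ps3 (0.940) and Dbn1 (0.932). Serinc2 and Fam214a shared their nearest 2 genes, Ing4 (0.943 and 0.913) and Kdm5b (0.931 and 0.907). They were also the pair of the 6 with the highest correlation to each other (r = 0.932), and Gadd45g and Nrbp2 had the lowest (r = 0.614). These correlations describe 16 arrays that share a reference and fall into 4 groups, and they carry no p.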

How the data were processed

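The data were 16 two-colour cDNA arrays. Per the labels, 40 µg of total RNA was labelled by reverse transcription, hybridised, scanned on a ScanArray scanner and quantified with QuantArray. The values deposited by the authors are log ratios, 1 per feature and array, read here as log2. The base, background correction, normalisation and spot filters are not stated in the labels. The deposited medians lay between -0.0053 and 0.0387, and 0 columns were unmapped. The lowest correlation between arrays of the same dye was 0.05, too near 0 to show that all of them ran in the same direction. Nor does it show the sign between the dyes. Spot intensities were not used, and precision is limited by the number of arrays.

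The chip annotation gave 1 symbol for 8833 of 15151 features, several for 606 and none for 5712. Arrays were centred on their median over features, features of 1 symbol were averaged, and a unit was kept with values on 3 or more arrays in each group, giving 12559 units (6241 named). All groups entered 1 model in limma 3.58.1 (R 4.3.3) with group coefficients and a term for dye. Tests were two-sided, with Benjamini-Hochberg adjustment over all units and a threshold of 0.05. The 6 genes were tested in 5 comparisons (30 tests). In the other 4 their values are descriptions. Ratios are tested against 0, which leaves out the spread of the reference. The fit was tested on simulated data.

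The 6 genes, the related lists and the marker lists were chosen with earlier results of these data known. Named genes were the 6, the 3 most like each of them, the 2 nearest in rank on each side of the lowest, and at most 4 called genes per list and comparison. Nrbp1, Serinc1 and Serinc3 are also given where they were not called, as relatives of the 6, and this was decided after their values were seen. Alternatives were no dye term, no centring, a common spread, quantile normalisation, only the groups compared, the title number as a term or its commonest value only, medians of features, no filter and each array left out.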

Additional observations from a re-analysis of the deposited data

Results flagged for a closer look

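In 4 of the 24 sets of 4 arrays, 1 array lay far from the other 3. Chance flags about 1 in 20 such sets where they are independent. These sets share arrays, and the 6 genes were correlated with each other (r from 0.614 to 0.932). The number of flags is therefore not read as an excess. Pink1 read 0.93 on replicate 4 of no factor at 12 h, where the others read 1.64 to 1.78, and Serinc2 read 1.27 on the same array, where the others read 1.94 to 2.01. Pink1 read 1.73 on replicate 4 of PDGF-AA at 6 d, and the others there read -0.26 to 0.01. Nrbp2 read 1.22 on replicate 4 of no factor at 6 d, against 2.51 to 2.65 on the others. The cause was not tested.

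The PDGF-AA arrays differed between times for Serinc2, which was lower at 6 d than at 12 h by -1.24 (limma adjusted p = 0.0152).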

How the results depend on the processing

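No paired analysis was possible because the labels give no replicate numbers, and the numbers used here follow deposition order. For PDGF-AA at 12 h against the reference, the 6 calls became 3 without the dye term and 1 to 6 when each array was left out. For no factor at 6 d the 5 calls stayed within 1.5 times under each alternative run, but the genes differed: Pink1 was lost without the dye term, Serinc2 under quantile normalisation and Fam214a with the commonest title number only, and Gadd45g was gained without both replicate 4 arrays of 6 d. For PDGF-AA at 6 d the 0 calls became 1 with a common spread, 2 with the title number as a term, 1 with the commonest title number only, 1 without both replicate 4 arrays of 6 d (an alternative chosen after seeing the data) and 0 to 1 when each array was left out. For PDGF-AA against no factor at 6 d the 0 calls became 5 without that pair and 0 to 1 when each array was left out. For 6 d against 12 h with PDGF-AA the 1 call became 0 without the dye term, with only the groups compared, with the title number as a term or with its commonest value only, 2 with a common spread or quantile normalisation, 4 without the pair and 0 to 3 when each array was left out.

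Directions turned mainly in the fits with the title number as a term or its commonest value only. In both fits replicate 4 alone sets the value of PDGF-AA at 6 d, so they are not separate checks. With the title number as a term and with its commonest value only, in that order, Gadd45g at 6 d without factor was -0.0773 and -0.0994. With PDGF-AA at 6 d, Gadd45g was 0.96 and 0.89, Serinc2 0.38 and 0.38, and the astrocyte marker Sparcl1 0.0808 and 0.0749. For PDGF-AA against no factor at 6 d, Sat1 was 0.36 and 0.34, Gadd45g 1.03 and 0.99, Pink1 0.91 and 0.93, Nrbp2 0.0096 and 0.0027, and Fam214a 0.0404 and 0.0447. For 6 d against 12 h with PDGF-AA, Sat1 was 0.80 and 0.77, Pink1 0.68 and 0.70, and Nrbp2 0.64 and 0.63. When each array was left out, Gadd45g at 6 d without factor ranged from -0.12 to 0.41, and with PDGF-AA at 6 d Pink1 ranged from -0.15 to 0.58 and Serinc2 from -0.25 to 0.12. Pink1 there was -0.17 without both replicate 4 arrays. The cause was not tested.

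Counts over all 12559 units also moved. Without the dye term, calls went from 1468 to 830 for no factor at 12 h, 378 to 156 for PDGF-AA at 12 h, 1723 to 990 for no factor at 6 d, 404 to 191 for PDGF-AA at 6 d, and 235 to 87 for 6 d against 12 h without factor. With the title number as a term and with its commonest value only, no factor at 6 d had 1123 and 1132 calls, and PDGF-AA at 6 d 164 and 175. PDGF-AA at 6 d had 28 calls when only its group was fitted, 618 with a common spread, 619 with quantile normalisation and 239 without the pair. PDGF-AA against no factor at 6 d had 229 without the pair, against 1. For 6 d against 12 h with PDGF-AA the 135 calls became 259 without the pair and 11 to 38 in the other alternatives that moved them so far, single arrays left out aside. PDGF-AA against no factor at 12 h had 2 calls and 0 to 25 over the alternatives. With 1 array left out, the lowest counts were 740 for no factor at 12 h, 76 for PDGF-AA at 12 h, 1012 for no factor at 6 d, 157 for PDGF-AA at 6 d, 111 for 6 d against 12 h without factor and 48 with PDGF-AA, and PDGF-AA against no factor at 6 d had up to 58.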
